A study of Mus musculus with 23 samples.

Results

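The genes described here were Stat2, Stat3, Stat4, Stat5a, Stat5b and Stat6, 6 members of the STAT family of transcription factors, taken by gene symbol from the 32285 genes of each count matrix. Their unique molecular identifiers (UMIs, 1 per captured RNA molecule) were summed in 16 mouse single-cell RNA-seq libraries and, within each library, in cell classes gated by marker genes. The study asked how 2 edited alleles of Stat5b, Y665F and Y665H, which replace a tyrosine of the protein (residue Y665) with phenylalanine or histidine, alter the immune system. The labels give the mice as C57BL/6 and 2 months old, and the study made both alleles in C57BL/6N zygotes.

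Lymph node libraries came from WT mice (2 libraries) and from mice heterozygous (3 libraries, "het") or homozygous (2 libraries, "homo") for Y665F. Bone marrow was sampled in WT, Y665H and Y665F mice, with 2 libraries of each genotype. Spleen was sampled in the same 3 genotypes, with 1 library each. The study's text has CD45+ cells isolated from spleens. The caption of its spleen figure gives a combined sample of several mice per group, but names lymph nodes as the source. The labels give the zygosity for lymph node only, while the study's account of its marrow experiments speaks of homozygous mice without tying this to single libraries. Y665F was made with CRISPR/Cas9 and a donor oligo and Y665H with an adenine base editor, so the edit is in the germline and is carried by every cell rather than by a chosen cell type. Bone marrow replicate 1 of each genotype held Xist RNA and replicate 2 held Ddx3y RNA, so in marrow the replicate number goes with the sex of the mice. The study's methods name male mice as the source of collected tissues, which the Xist RNA of replicate 1 does not match.

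STAT proteins wait in the cytoplasm until a cytokine receptor and its Janus kinase (JAK) phosphorylate them on a tyrosine, after which they pair through their SH2 domains, enter the nucleus and bind DNA. Stat2 works with Irf9 downstream of type I interferon, Stat3 downstream of the interleukin-6 family and G-CSF, Stat4 downstream of interleukin-12, and Stat6 downstream of interleukin-4. Stat5a and Stat5b are close paralogues that answer to interleukin-2, interleukin-7, thrombopoietin, erythropoietin and growth hormone. The edited tyrosine, Y665, lies in the SH2 domain of Stat5b.

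The edited site is shown because it defines the genotypes. In GRCm38, the Y665 codon occupied chr11:100787291-100787293 on the minus strand, in exon 16 of the 19 exons of transcript Stat5b-201, inside the coding sequence. The following lines give the coding strand from 5′ to 3′ over chr11:100787279-100787308, with the Y665 codon in capitals, for the reference and for the Y665F donor, and then the guide given for both alleles (chr11:100787287-100787309, plus strand) with its PAM in capitals.
WT Stat5b: ctgggggacctgaatTACctcatatatgtg
Y665F donor: ctgggggacctgaatTTTctcatatatgtg
guide: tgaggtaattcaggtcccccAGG
Counted from the first base of the coding sequence, the listed donor differed from the reference by A1994T and C1995T, and the histidine codon of Y665H needs T1993C. The study's methods also describe a silent change in the donor, meant to destroy the PAM, which the listed donor sequence does not hold.

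The 6 genes lie at 3 places in the genome. Stat4 is on chromosome 1 (chr1:51987148-52107189, plus strand). Stat6 (chr10:127642986-127660957, plus strand) and Stat2 (chr10:128270559-128292849, plus strand) share chromosome 10. Stat5b (chr11:100780731-100850724, minus strand), Stat5a (chr11:100859351-100885169, plus strand) and Stat3 (chr11:100885098-100939540, minus strand) form a cluster on chromosome 11 that spans 158810 bases between its outer ends. Stat5b and Stat5a are separated by 8626 bases, and the annotated ends of Stat5a and Stat3 overlap by 72 bases. Of the 31-base words of the transcripts, 23.4% in Stat5a and 16.6% in Stat5b also occurred in the other paralogue. Reads that fall wholly within those words cannot be given to either gene, so values of Stat5a and Stat5b carry that uncertainty.

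Lymph node libraries held 4604 to 9216 barcodes after filtering and 2372988 to 16089493 UMIs, of which 1043 to 7408 came from the 6 STAT genes. Marrow libraries held 4237 to 18711 barcodes, 16131568 to 55554584 UMIs and 2082 to 10550 STAT UMIs. The spleen libraries held 5028 to 8018 barcodes, 36644610 to 47020817 UMIs and 13425 to 20703 STAT UMIs. At most 2.87% of barcodes were shared between any pair of libraries of 1 tissue, and pairs across tissues were not compared. The lymph node libraries het 3 and homo 1 stood apart, with median depths of 410 and 436 UMIs per barcode and with 63.0% and 62.1% of barcodes meeting no gate. Results from lymph node were therefore also computed without them. Levels are given as CPM, the UMIs of a gene per 1000000 UMIs of the library or class. UMIs are read at 1 end of the transcript, so a level is compared between genotypes and classes of 1 tissue but not between genes.

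**Figure D1:**
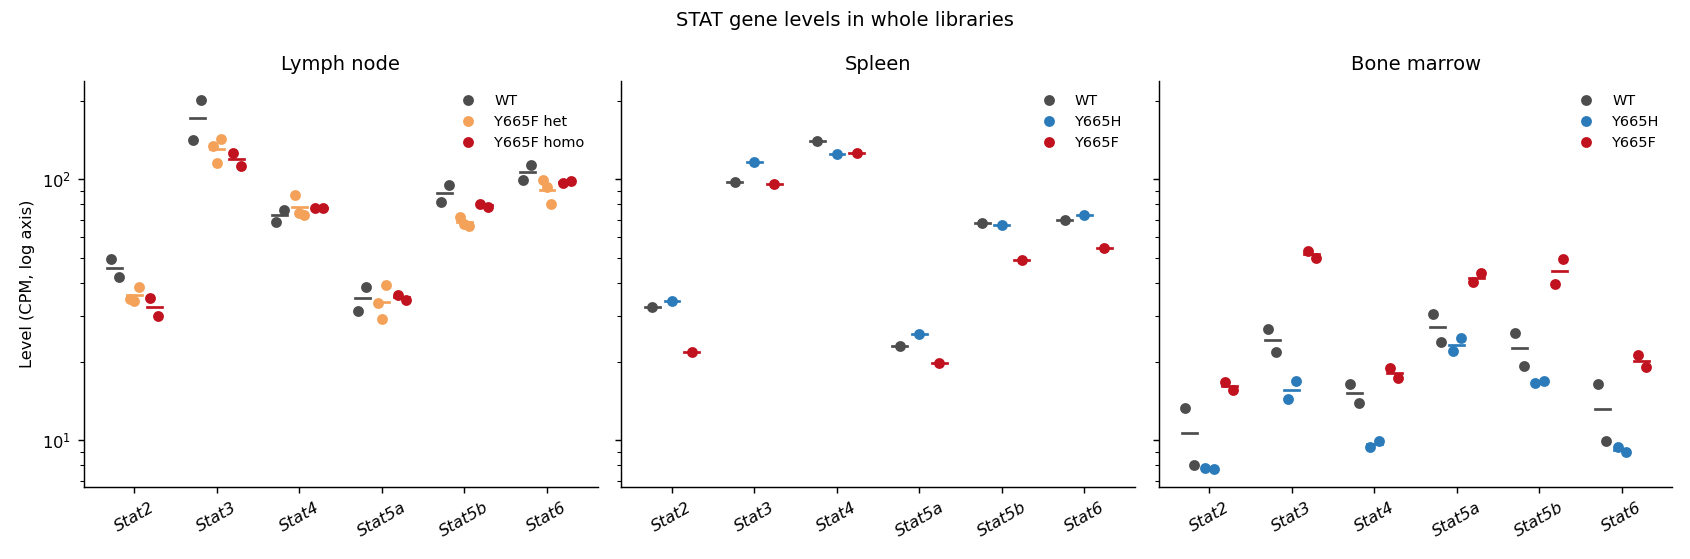
CPM (log axis) of each of the 6 STAT genes in whole libraries of lymph node, bone marrow and spleen, with 1 point per library and colours for genotype. In marrow the 2 Y665F libraries lie above the 2 WT libraries for every gene shown, whereas in lymph node the Stat3 points of the homo libraries (126 and 113 CPM) lie below those of WT (141 and 202 CPM).

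All calls of STAT genes against WT were in bone marrow. Stat3, which relays G-CSF and interleukin-6 signals in marrow, was at 26.6 and 21.7 CPM in the 2 WT libraries, 14.3 and 16.9 CPM in the Y665H libraries and 53.0 and 50.1 CPM in the Y665F libraries. The 3 genotypes did not overlap. Stat5b itself was at 25.8 and 19.3 CPM in WT, 16.6 and 16.8 CPM with Y665H and 39.5 and 49.3 CPM with Y665F. The order was the same, again without overlap. The share of all genes in this order was not computed. Of 9238 genes with a mean of at least 5 CPM, 37.4% lay above both WT libraries in Y665F. Below both WT libraries in Y665H lay 31.8%. Stat3 and Stat5b each rose in Y665F against WT. The log2 difference was 0.93 ± 0.20 (SE) for Stat3 (1.91-fold, adjusted p = 0.00367) and 0.82 ± 0.20 for Stat5b (1.77-fold, adjusted p = 0.00751), by edgeR's quasi-likelihood test with Benjamini-Hochberg adjustment over all genes of the fit.

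The other members were also at higher CPM in both Y665F libraries than in both WT libraries, without passing the test. Of 9238 genes with a mean of at least 5 CPM in marrow, 37.4% lay above both WT libraries in this way. Stat5a was at 30.6 and 23.7 CPM in WT and at 40.4 and 43.5 CPM with Y665F, a log2 difference of 0.47 ± 0.20 with an adjusted p of 0.0783. Stat6 was at 16.4 and 9.96 CPM in WT and at 21.2 and 19.1 CPM with Y665F (log2 difference 0.48 ± 0.23, adjusted p = 0.118). For these genes the WT libraries lay farther apart from each other than the Y665F libraries did. Stat2 was at 13.3 and 8.04 CPM in WT and 16.7 and 15.6 CPM with Y665F (log2 difference 0.46 ± 0.23, adjusted p = 0.136). Stat4, the interleukin-12 member, differed least, at 16.4 and 13.9 CPM in WT and 18.9 and 17.3 CPM with Y665F (log2 difference 0.10 ± 0.21, 95% interval -0.36 to 0.55, adjusted p = 0.758).

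These values stand against a wide change of the marrow transcriptome. In whole marrow 31.3% of 13923 genes tested were called changed between Y665F and WT (2083 up and 2275 down), so that 2 of the 6 STAT genes called was close to the background. The median log2 difference of the 6 genes was 0.475, beside a median of 0.0387 over all genes. Scaling by library totals in place of TMM, edgeR's trimmed-mean scaling, moved the median of all genes to 0.203 and the calls to 2353 up and 1480 down. It moved the median of all genes from -0.00896 to -0.269 for Y665H minus WT and from 0.0724 to 0.498 for Y665F minus Y665H, whose calls went from 3218 up and 3057 down to 5317 up and 1515 down. The CPM values follow library totals and the log2 differences follow TMM, so in whole marrow a difference of CPM is larger than its log2 difference for Y665F and more negative for Y665H. Within classes the gap varied, and for Y665F it took the other sign in the stem, lymphoid-primed, monocyte and megakaryocyte classes.

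Marrow barcodes were then divided by gates of which at least 2 distinct markers had to be seen. They were stem (such as Hlf, Mecom and Procr), lymphoid-primed (Dntt, Flt3), granulocyte-monocyte progenitor (GMP; Mpo, Elane), monocyte (Csf1r, F13a1), early erythroid (Klf1, Car1), megakaryocyte (Pf4, Itga2b) and B lineage (Cd79a, Ebf1). The names stand for these gates, and each class holds its markers by construction. Fewer cells of a type and less RNA per cell cannot be told apart in whole-library sums, and the mix of classes differed between genotypes. Stem-gated barcodes were 11.3 and 8.05% of gated barcodes in WT, 5.34 and 4.54% in Y665H, and 34.5 and 38.4% in Y665F. Early erythroid barcodes were 49.3 and 50.6% in WT, 68.3 and 59.3% in Y665H, and 21.6 and 18.9% in Y665F.

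Within classes, 7 tests of 43 (6 genes over whole marrow and 7 classes, where the gene passed the filter on low counts) were called between Y665F and WT, and all 7 were increases. Over the same 8 fits 14.6% of the 70851 gene tests were called, close to the share of the STAT genes. Without adjustment 16 of the 43 had p under 0.05. Stat5b was higher in both Y665F libraries than in both WT libraries in 7 of 7 classes, with log2 differences from 0.66 to 1.23 and a median of 0.97. Of 7841 genes with a mean of at least 5 CPM in each class, 3.19% did the same, and the classes share the same 4 libraries. Stat3 had positive log2 differences in 7 of 7 classes (0.63 to 1.11, median 0.71), and so had Stat5a (0.32 to 1.39, median 0.87). Beside these, Stat6 was positive in 5 of 5 classes tested and Stat2 in 5 of 6. In CPM the Y665F libraries overlapped WT in 5 of the 7 classes for Stat6, in 4 for Stat2 and in 2 each for Stat3 and Stat5a. The share of all genes with such signs was not computed. Stat4 had a negative log2 difference in 4 of 5 classes tested, 1 of them near 0 (-0.02 ± 0.43 in GMP), and none of its class values passed adjustment.

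**Figure D2:**
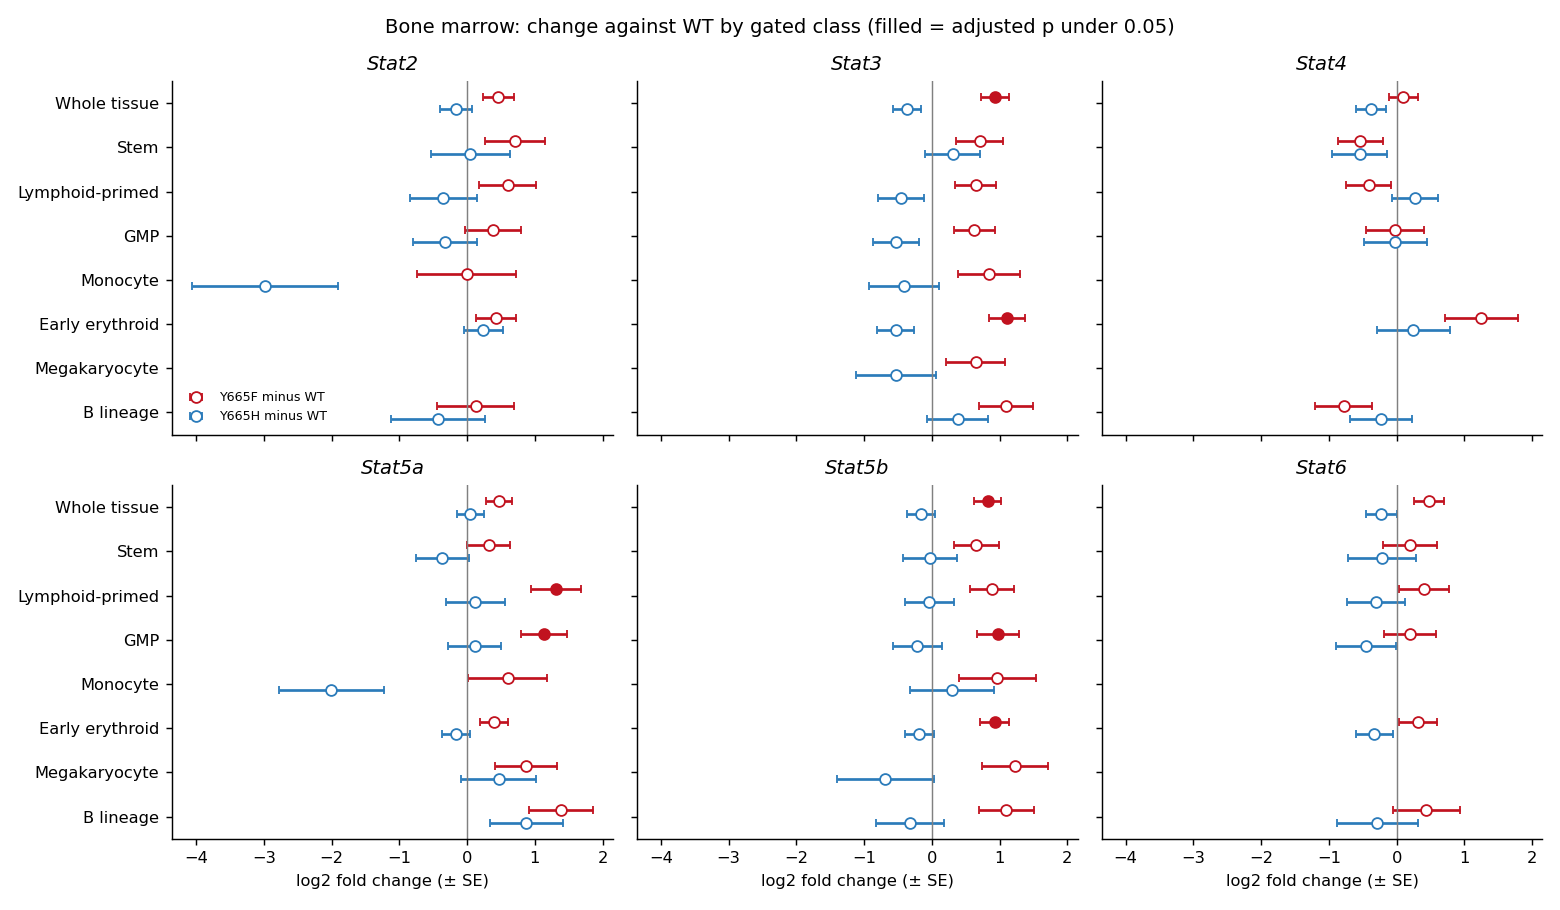
Log2 difference ± SE against WT of each STAT gene in whole marrow and in each gated class, with 1 panel per gene, Y665F in red and Y665H in blue, filled where adjusted p was under 0.05. Filled points occur for Y665F only and are those of Stat3, Stat5a and Stat5b.

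Early erythroid cells, the class with the most barcodes in WT, showed increases of Stat3 and Stat5b. Stat5b, which with Stat5a carries the erythropoietin signal, was at 19.6 and 16.5 CPM in WT, 13.8 and 15.6 CPM with Y665H, and 33.5 and 47.0 CPM with Y665F. Its log2 difference between Y665F and WT was 0.93 ± 0.21 (adjusted p = 0.00752). Stat3 was low in this class, at 11.0 and 8.93 CPM in WT, 6.24 and 6.45 CPM with Y665H, and 18.6 and 32.7 CPM with Y665F (log2 difference 1.11 ± 0.26, adjusted p = 0.00858). The Y665F libraries lay above all others for each of these genes, though their own replicates differed more than those of WT. The share of all genes that did so was not computed. Stat5a was at 32.5 and 29.5 CPM in WT and 44.2 and 51.1 CPM with Y665F, with a log2 difference of 0.40 ± 0.21 that did not pass (adjusted p = 0.15). The background in this class was 29.7% of genes called.

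In the progenitors of the myeloid and lymphoid lines Stat5a rose in Y665F. In GMP it was at 17.5 and 13.9 CPM in WT, 18.8 and 10.9 CPM with Y665H, and 32.2 and 38.8 CPM with Y665F, a log2 difference from WT of 1.13 ± 0.34 (adjusted p = 0.0315). Stat5b in GMP was at 25.0 and 16.7 CPM in WT and 36.8 and 44.5 CPM with Y665F (log2 difference 0.98 ± 0.31, adjusted p = 0.0405). The Y665F libraries did not overlap the WT libraries for either paralogue, though the share of all genes without overlap in GMP was not computed. Of the genes tested in GMP, 13.2% were called. In the lymphoid-primed class Stat5a was at 18.1 and 12.3 CPM in WT, 10.6 and 18.1 CPM with Y665H, and 28.9 and 42.8 CPM with Y665F (log2 difference 1.31 ± 0.37, adjusted p = 0.027), where 8.09% of genes were called. Stat5b there was at 29.8 and 18.0 CPM in WT and 35.1 and 48.1 CPM with Y665F, with an adjusted p of 0.0824. GMP Stat3 overlapped between genotypes, at 45.0 and 27.1 CPM in WT and 61.9 and 44.9 CPM with Y665F.

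No STAT gene was called between Y665F and WT in the remaining 4 classes. Megakaryocyte-gated cells had Stat5b at 20.6 and 19.0 CPM in WT, 17.4 and 3.62 CPM with Y665H, and 33.9 and 57.3 CPM with Y665F (log2 difference from WT 1.23 ± 0.48, adjusted p = 0.0834). Of the genes tested in that class, 11.2% were called. The WT libraries held 31 and 35 STAT UMIs there, and the Y665H libraries 43 and 24. In B lineage cells Stat5a was at 17.5 and 10.1 CPM in WT and 28.9 and 37.4 CPM with Y665F (log2 difference 1.39 ± 0.47, adjusted p = 0.142) and Stat4 at 56.8 and 25.3 CPM in WT and 20.9 and 20.4 CPM with Y665F, with 0.631% of genes called. The stem class had Stat5b at 41.8 and 27.1 CPM in WT and 45.2 and 53.4 CPM with Y665F, and 0.512% of its genes were called. In monocytes Stat5b was at 32.7 and 8.64 CPM in WT and 33.4 and 35.7 CPM with Y665F, and 0.4% of genes were called. In the stem, monocyte and B lineage classes few genes of any kind passed.

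The calls depended on single libraries. Without Y665F replicate 2 only whole-marrow Stat3 was called between Y665F and WT (1 call), and without WT replicate 2 only whole-marrow Stat3 and Stat5b were (2 calls). Leaving out any other marrow library left 5 to 8 calls. DESeq2 made 4 calls, which were Stat3 and Stat5b in whole marrow and in early erythroid cells. With the replicate number, which here goes with sex, as a block, all 7 calls were kept and Stat4 in early erythroid cells was added (adjusted p = 0.00915), making 8. Gates of 3 markers left 3 calls, those of Stat3 and Stat5b in early erythroid cells and of Stat5b in GMP, where 5 class calls had been made with gates of 2 markers.

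Markers of neutrophils were higher in Y665F in every marrow class. The summed level of S100a8, S100a9, Ngp, Camp and Lcn2 in whole marrow was 37.3 to 194 CPM over the WT and Y665H libraries and 3340 and 1410 CPM in the Y665F libraries. In early erythroid cells it was 5.5 to 17.3 CPM against 107 and 203 CPM, in GMP 25.7 to 155 CPM against 417 and 318 CPM, and in the lymphoid-primed class 6.47 to 36.1 CPM against 214 and 290 CPM. All 5 markers had UMIs in every class of each Y665F library, and 1 to 5 of the 5 in the classes of the WT and Y665H libraries. The part of this RNA in the STAT differences was not tested.

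Holding the mix of gated classes at that of WT changed the members unequally. The ratio of Y665F to WT stayed at 1.96 for Stat5b (1.97 in whole libraries) and was 1.61 for Stat5a (1.55 in whole libraries). For Stat3 it went from 2.14 to 1.78. Those of Stat6 and Stat2 went from 1.53 to 1.30 and from 1.51 to 1.26, and that of Stat4 crossed 1, from 1.20 to 0.792. The standardised values of Y665F and WT overlapped for 2 members. For Stat4 they were 21.4 and 12.8 CPM in WT and 12.5 and 14.6 CPM in Y665F. For Stat2 they were 15.5 and 6.99 CPM in WT and 15.2 and 13.1 CPM in Y665F. Barcodes meeting no gate or several are in the whole-library ratio but not in the standardised ratio, and 41.7 to 54.5% of marrow barcodes met 1 gate. These ratios are values with no test.

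Between Y665H and WT no STAT gene was called, with 0 of 43 tests by edgeR passing and 0.0% of all genes called in whole marrow and in each of the 7 classes. DESeq2 also made 0 calls. Without adjustment 2 of the 43 had p under 0.05, Stat2 and Stat5a in monocytes, each with an adjusted p of 0.88. Stat5b in whole marrow had a log2 difference of -0.16 ± 0.20 (95% interval -0.59 to 0.28) and Stat3 one of -0.36 ± 0.20 (-0.80 to 0.07). Stat5a had a log2 difference of 0.05 ± 0.20, while Stat4, Stat6 and Stat2 had -0.38, -0.23 and -0.16. On the CPM scale 5 of the 6 members were below WT in both Y665H libraries, with Stat5a overlapping at 21.9 and 24.5 CPM, and 31.8% of 9238 genes lay below WT in this way. Differences within these intervals were not detectable with 2 libraries a group.

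The 2 edited alleles were also compared with each other, at the same age and in the same tissue. Of the 43 tests between Y665F and Y665H, 14 were called, all higher in Y665F, where 22.4% of the gene tests of these fits were called, and 24 had an unadjusted p under 0.05. In whole marrow Stat3 (log2 difference 1.30 ± 0.20, adjusted p = 0.000267), Stat5b (0.98 ± 0.20, adjusted p = 0.00158), Stat6 (0.70 ± 0.23, adjusted p = 0.0194) and Stat2 (0.62 ± 0.23, adjusted p = 0.0368) passed, against a background of 45.1%. Stat3, Stat5a and Stat5b all passed in early erythroid cells (log2 differences 1.65, 0.57 and 1.11, background 34.8%). The same 3 genes passed in GMP (1.15, 1.02 and 1.20, background 26.0%) and in the lymphoid-primed class (1.10, 1.19 and 0.93, background 18.2%). In megakaryocyte-gated cells Stat5b passed (log2 difference 1.92 ± 0.53, adjusted p = 0.00943), where 17.2% of genes were called. The Y665H libraries held 43 and 24 STAT UMIs in that class, of which 16.3 and 4.17% were Stat5b. That call therefore rests on few UMIs. None passed in the stem, monocyte or B lineage classes, whose backgrounds were 5.03%, 2.37% and 2.5%. DESeq2 made 7 of these calls, the replicate block kept all 14 and made 20, and leaving out 1 library left from 5 (without Y665H replicate 1) to 17 (without WT replicate 2). This comparison shares its Y665F libraries with the comparison against WT.

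Levels of the STAT genes also differed between marrow classes, each averaged over the 6 libraries. The stem class had the highest mean level of Stat3 (51.3 CPM), Stat4 (34.9 CPM), Stat5a (39.3 CPM), Stat5b (37.3 CPM) and Stat6 (21.5 CPM). Early erythroid cells had the lowest mean level of every member but Stat5a. Stat3 was at 6.24 to 32.7 CPM there over the 6 libraries, below the next class in 6 of 6 libraries, as was Stat2, and Stat4 was below it in 5 of 6. Stat6 was below the next class in 4 of 6 libraries and Stat5b in 3 of 6, so for these genes the lowest classes were not set apart. Stat5a was instead at 34.8 ± 10.7 CPM in early erythroid cells, next after the stem class, and at 33.0 CPM in megakaryocyte-gated cells. Most other neighbours in each order overlapped, the highest ones included for Stat2, where the B lineage exceeded the stem class in 2 of 6 libraries. Across the 7 class means, the correlation of Stat5a with the other members ran from -0.30 to 0.39, while those among the other 5 ran from 0.67 to 0.94. The classes share libraries and differ in depth, so these are descriptions.

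Among 6910 genes expressed in marrow, those most alike to each member over the 7 classes were Acss2, Abcg2 and Ddx3x for Stat5a, Coq10b, Hlf and Dcaf17 for Stat5b, and Tmed4, Plcb2 and Sptbn1 for Stat3. For Stat2 they were Dhx57, H2-D1 and Btg2, for Stat4 Gbe1, Cggbp1 and Snx6, and for Stat6 Ccnl1, Mbd6 and Pcgf5. Pearson's r on log2(CPM + 1) lay between 0.958 and 0.993 over the 7 classes. Hlf is also a marker of the stem gate.

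In lymph node no STAT gene was called at either dose of the allele. Stat3 was at 141 and 202 CPM in WT, 134, 116 and 142 CPM in het, and 126 and 113 CPM in homo libraries. Both homo libraries lay below WT, and 1 het library exceeded the lower WT value by a small margin. Its log2 difference from WT was -0.31 ± 0.14 in het (adjusted p = 0.318) and -0.44 ± 0.15 in homo libraries (adjusted p = 0.141). The homo value passed with no filter on low counts (adjusted p = 0.00946) and without WT replicate 1 (adjusted p = 0.0495). Stat2, the interferon member, was at 49.4 and 42.1 CPM in WT, 34.9, 34.3 and 38.8 CPM in het, and 35.1 and 29.8 CPM in homo libraries, with log2 differences of -0.27 ± 0.12 (adjusted p = 0.319) and -0.42 ± 0.14 (adjusted p = 0.121). Here all 5 Y665F libraries lay below both WT libraries. Both homo libraries did so for 35.5% of 9355 genes, and the share of genes with all 5 on 1 side of WT was not computed. B cells, in which Stat2 was highest, also had lower shares, making up 41.1 and 26.0% of barcodes for WT against 21.1, 23.6 and 11.0% for het and 9.4 and 15.3% for homo. The summed B cell markers were at 3040 and 1810 CPM in WT and 1020 to 1500 CPM in the Y665F libraries, and their part in the Stat2 values of whole tissue was not tested. Within B cells Stat2 went the other way, with all 5 Y665F libraries above both WT libraries. Its mean there was 61.6 CPM in WT and 77.9 CPM over all 7 libraries.

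Stat5b was at 81.5 and 95.2 CPM in WT, 71.8, 67.6 and 66.2 CPM in het, and 80.5 and 78.4 CPM in homo libraries. All mutant libraries were below WT, the het libraries more so than the homo ones, with log2 differences of -0.28 ± 0.10 (adjusted p = 0.203) and -0.06 ± 0.11 (adjusted p = 0.799). The share of all genes with every mutant library below WT was not computed. Stat5a was at 31.4 and 38.7 CPM in WT, 33.6, 29.1 and 39.2 CPM in het, and 35.9 and 34.6 CPM in homo libraries, and the groups overlapped. Stat4 was at 68.7 and 76.5 CPM in WT, 86.6, 74.2 and 72.9 CPM in het, and 77.4 and 77.9 CPM in homo libraries. It was the member with both homo libraries above both WT libraries, by a small margin, without passing the test. Stat6 ranged from 80.5 to 113 CPM over the 7 libraries. Both homo libraries lay below both WT libraries for 4 of the 6 members, and the same held for 35.5% of 9355 genes with a mean of at least 5 CPM in lymph node, while 17.0% lay above. Of 8107 genes at that level in both tissues, 15.2% lay below WT in homo lymph node and above WT in Y665F marrow. Over whole tissue 1.65% of 11471 genes were called in het and 4.6% in homo libraries. With library totals the median log2 difference of all genes moved from 0.0045 to -0.0831 in het and from 0.00212 to -0.0926 in homo libraries, and the calls went from 103 up and 86 down to 78 up and 220 down and from 286 up and 242 down to 193 up and 449 down.

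CD8 T cells (Cd3 or T-cell receptor transcripts with Cd8a or Cd8b1) held the lymph node value closest to a call, that of Stat2 in homo libraries. Stat2 was at 27.5 and 33.1 CPM in WT, 22.5, 20.4 and 27.4 CPM in het, and 18.8 and 14.8 CPM in homo libraries. The homo libraries lay below every other library. Their log2 difference from WT was -0.93 ± 0.25, with an adjusted p of 0.0594. It passed under 3 alternatives, library totals (adjusted p = 0.0333), no filter on low counts (adjusted p = 0.0378) and without WT replicate 1 (adjusted p = 0.0403). The shallow library homo 1 held 158 STAT UMIs in this class, of which 4.43% were Stat2. In CD8 cells without a UMI of the chemokine Ccl5 the homo libraries overlapped WT for Stat2. With Ccl5 they lay below WT, where they held 66 and 449 STAT UMIs, of which 1.52 and 2.45% were Stat2. Stat5b was at 81.8 and 81.7 CPM in WT, 59.3, 56.2 and 65.1 CPM in het, and 75.1 and 58.8 CPM in homo libraries, a log2 difference of -0.41 ± 0.12 in het (adjusted p = 0.143) and -0.32 ± 0.16 in homo (adjusted p = 0.371). The subsets differed from the whole class for Stat5b. In CD8 cells without Ccl5 the het libraries lay below WT and the homo libraries overlapped WT. With Ccl5 the het libraries overlapped WT and the homo libraries lay above WT. Cells with Ccl5 were 8.4 and 7.38% of the class in WT and 38.9 and 49.7% in homo libraries, and the part of this share was not tested. The CD8 background was 0.829% in het and 1.61% in homo libraries.

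Over all lymph node fits, 0 of 35 tests passed in het and 0 of 35 in homo libraries by edgeR, where 0.619% and 1.49% of all gene tests were called, with 9 and 8 at an unadjusted p under 0.05, and DESeq2 made 0 calls in each. The median log2 difference of the members in CD8 cells was -0.25 in het and -0.28 in homo libraries, beside -0.000442 and 0.00458 over all genes of that class. Stat3 had a negative log2 difference in 5 of 5 classes in both comparisons, which share the WT libraries. These classes are nested, since CD8 cells stand among them whole and as the subsets with and without Ccl5. The backgrounds of the other classes were 0.0474% and 0.19% in CD8 cells without Ccl5, 0.0% and 0.125% in CD8 cells with Ccl5, 0.555% and 0.555% in CD4 cells, and 0.0% and 0.011% in B cells, for het and homo in turn. CD4 sums of the libraries het 3 and homo 1 held 11 and 8 STAT UMIs, with no UMI of Stat2 or Stat6 in either. A count of 0 there allows up to 116 and 112 CPM (3 counts over the class), so these libraries say little of CD4 cells.

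Ccl5, a chemokine of effector and memory CD8 cells, divided the CD8 class, and its share differed between genotypes. CD8 cells with a Ccl5 UMI made up 8.4 and 7.38% of the class in the WT libraries, against 36.3, 28.1 and 33.1% in the het and 38.9 and 49.7% in the homo libraries. Stat5b was at 88.3 and 85.8 CPM in WT CD8 cells without Ccl5 and at 29.2 and 40.3 CPM in those with it. In het libraries it was at 72.9, 68.3 and 75.3 CPM without Ccl5 and at 39.9, 31.5 and 47.3 CPM with it, and in homo libraries at 94.6 and 73.5 CPM without and 49.5 and 46.8 CPM with it. Stat5b was therefore lower in the cells with Ccl5 in 7 of 7 libraries, and the ranges of the 2 subsets did not overlap. Of 8917 genes with a mean of at least 5 CPM, 4.75% were lower with Ccl5 in every library and 3.62% higher. The mean log2 difference, with 0.5 UMI added to each sum, was -0.94 ± 0.29 (SD, n = 7; exact two-sided sign-flip test, p = 0.0156, the smallest that 7 libraries allow). Adjusted over the 8917 genes the exact test gave p = 0.187. Every gene of 1 sign in all libraries has that smallest p, so 0.187 was the lowest adjusted value possible here. With 7 libraries no gene could pass, and the adjusted value does not decide on Stat5b.

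Stat4 ran the other way. It was at 80.1 and 87.8 CPM in WT cells without Ccl5 and 87.6 and 104 CPM with it, and in het libraries at 90.5, 73.7 and 86.0 CPM without and 126, 130 and 133 CPM with it. In homo libraries it was at 61.5 and 70.3 CPM without Ccl5 and 111 and 129 CPM with it. Stat4 was higher with Ccl5 in 7 of 7 libraries, by a mean log2 difference of 0.58 ± 0.28 (exact sign-flip test, p = 0.0156, adjusted p over all genes = 0.187). These p-values were again the lowest possible here. The mean log2 difference of Stat5a was -0.35, that of Stat3 -0.25, that of Stat6 -0.17 and that of Stat2 -0.21, with exact unadjusted p-values of 0.109, 0.203, 0.172 and 0.641. This comparison was chosen after the values had been seen, and median depth was higher in the cells with Ccl5 in every library. Without het 3 and homo 1 the 5 remaining libraries gave -1.02 for Stat5b and 0.52 for Stat4, where the smallest possible p is 0.0625.

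**Figure D3:**
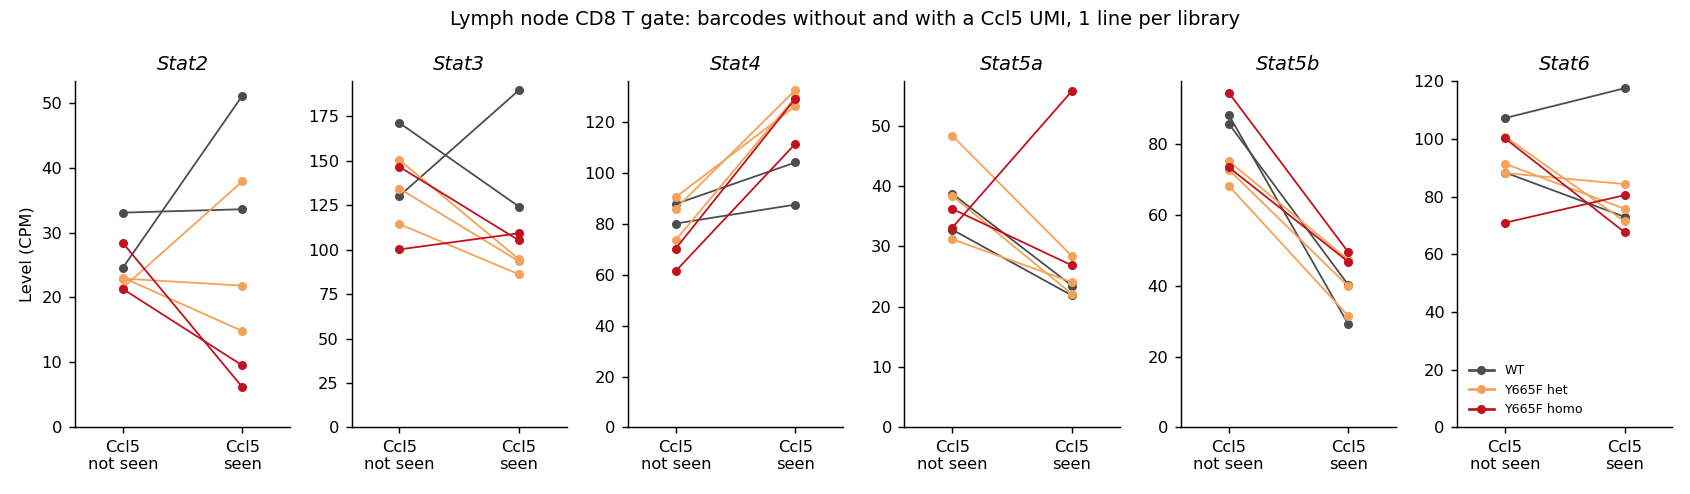
CPM of each STAT gene in lymph node CD8 T cells without and with a Ccl5 UMI, with a line joining the 2 values of each of the 7 libraries and colours for genotype. Lines for Stat5b all fall and lines for Stat4 all rise.

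The classes of lymph node differed in which STAT gene stood high. Stat2 was highest in B cells, at 77.9 ± 16.3 CPM (SD, n = 7). Stat6, which drives the B cell answer to interleukin-4, also had its highest mean there, at 111 ± 21.6 CPM. Its WT means were close in B cells (118 CPM) and CD4 cells (112 CPM), so B cells were not set apart. The CD4 mean over all libraries (78.7 CPM) includes Stat6 counts of 0 in het 3 and homo 1, which allow up to 116 and 112 CPM. Stat5b was highest in regulatory T cells (Foxp3-positive), at 142 ± 45.6 CPM, followed by CD4 cells at 103 ± 31.3 CPM, CD8 cells without Ccl5 at 79.8 ± 9.74 CPM, B cells at 52.0 ± 9.22 CPM and CD8 cells with Ccl5 at 40.7 ± 7.93 CPM. In that order CD8 cells without Ccl5 were above B cells in 7 of 7 libraries, while the other neighbours crossed in 1 library. Regulatory T cells were too few for a test. Their Stat5b was at 196 and 208 CPM in WT, 103, 121 and 121 CPM in het, and 154 and 90.3 CPM in homo libraries, and the values of het 3 and homo 1 rest on 1 and 2 UMIs.

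Spleen had 1 library per genotype, so its values carry exact Poisson 95% intervals that cover counting error only, and no test was made. Stat5b was at 67.8 CPM (65.3 to 70.4) in WT, 66.9 CPM (64.6 to 69.3) in Y665H and 49.0 CPM (46.7 to 51.3) in Y665F. Stat6 was at 69.5 CPM in WT, 72.6 CPM with Y665H and 54.4 CPM with Y665F. The Y665F library was thus the lowest for both genes, in contrast to marrow. It was also the lowest for Stat2, at 21.8 CPM against 32.2 CPM in WT and 34.3 CPM with Y665H. Stat3 was at 97.3, 117 and 95.8 CPM, Stat4 at 139, 124 and 126 CPM, and Stat5a at 23.0, 25.6 and 19.8 CPM in WT, Y665H and Y665F.

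Part of the spleen difference was visible within CD4 and CD8 T cells. In regulatory T cells Stat5b was at 100 CPM in WT and 81.4 CPM in Y665F, and in NK cells at 48.6 and 43.9 CPM, with overlapping intervals. B cells had Stat5b at 44.4 CPM (39.3 to 50.1) in WT, 37.0 CPM (32.9 to 41.4) in Y665H and 33.2 CPM (27.0 to 40.3) in Y665F. The monocyte or macrophage gate was at 92.3 CPM in WT and 99.1 CPM in Y665F. CD4 cells had Stat5b at 97.1 CPM in WT, 94.7 CPM with Y665H and 70.6 CPM with Y665F. CD8 cells had 58.5, 56.9 and 40.5 CPM in the same order. When the CD8 class was divided, cells without Ccl5 were at 61.2, 59.5 and 55.4 CPM, with overlapping intervals, and cells with Ccl5 at 54.6, 52.3 and 36.6 CPM, where the Y665F interval lay below the others. Among CD8 cells of the Y665F spleen, Stat5b was thus below WT beyond counting error in those with Ccl5 and within it in those without. Those without held fewer Stat5b UMIs (177 against 442), and the difference between the subsets was not tested. With Ccl5 every member was lower in Y665F than in WT, but the intervals overlapped for Stat2, Stat3, Stat5a and, by a small margin, Stat6. The share of all genes lower in the Y665F library was not computed. Stat4 was below WT beyond counting error in both subsets, at 174 against 208 CPM with Ccl5 and 119 against 152 CPM without. CD8 cells made up 24.6, 15.8 and 35.1% of kept barcodes in WT, Y665H and Y665F.

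Natural killer and neutrophil gates held further spleen values. In NK cells Stat4, which carries the interleukin-12 signal for interferon-gamma, was at 519 CPM (479 to 562) in WT, 459 CPM (420 to 500) in Y665H and 290 CPM (252 to 331) in Y665F. In the neutrophil gate Stat3 was at 244, 288 and 124 CPM, Stat5b at 163, 127 and 46.2 CPM, and Stat6 at 198, 162 and 61.9 CPM in WT, Y665H and Y665F. That gate held 83, 513 and 231 cells with median depths of 2842, 3110 and 9485 UMIs. The 5 neutrophil markers took 15.7, 20.1 and 33.8% of its UMIs, and outside them Stat5b was at 193, 160 and 69.7 CPM. Neutrophil genes did not move together there, since Ngp was at 5850, 10600 and 31900 CPM but Csf3r at 2570, 2050 and 358 CPM, Cxcr2 at 2160, 2310 and 541 CPM and Mmp9 at 1430, 1470 and 1160 CPM. The gate of the Y665F library therefore differed from the others in depth and in makeup as well as in STAT levels.

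The balance among the STAT genes was measured as each member's share of the 6 genes' UMIs in a library, which does not depend on library size. Libraries were ordered as Y665H, WT and Y665F in marrow and as WT, het and homo in lymph node, and the trend of each of 14 values along its order was tested by the Jonckheere-Terpstra statistic, with two-sided exact p-values from permuted libraries. In marrow the mean share of Stat3 was 18.9% in Y665H, 21.5% in WT and 26.8% in Y665F, and that of Stat5a was 28.2, 24.1 and 21.8%. Each had p = 0.0222 in the exact test, the smallest that 2 libraries a group allow, and an adjusted p of 0.1. The log2 ratio of Stat5b to Stat5a UMIs was -0.400 and -0.548 in Y665H, -0.245 and -0.298 in WT, and -0.032 and 0.181 in Y665F. The 3 genotypes did not overlap in that ratio, with the same exact permutation p of 0.0222 and adjusted p of 0.1.

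The whole-marrow balance was not that of every class, and early erythroid cells, whose Stat5a share was 38.5 and 42.6% in WT, made up 49.3 and 50.6% of gated barcodes for WT and 21.6 and 18.9% for Y665F. Within early erythroid cells the ratio of Stat5b to Stat5a UMIs was 0.602 and 0.559 for WT and 0.757 and 0.919 for Y665F, and in the stem class 0.826 and 0.8 against 0.964 and 1.1. In other classes it was lower with Y665F, at 1.64 and 1.47 for WT against 1.22 and 1.12 for Y665F in the lymphoid-primed class, 1.43 and 1.2 against 1.14 and 1.15 in GMP, and 1.5 and 1.9 against 1.44 and 1.42 in the B lineage, and in the monocyte and megakaryocyte classes the genotypes overlapped. The Stat5a share was higher with Y665F in these 3 classes, for example 11.6 and 10.8% for WT and 14.6 and 22.1% for Y665F in the lymphoid-primed class. The WT libraries held 44 and 97 STAT UMIs in the B lineage and 56 and 130 in GMP, and no class value of the balance was tested. The part of cell mix in the whole-marrow trend was not tested.

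In lymph node the mean share of Stat3 was 32.8% in WT, 29.8% in het and 26.9% in homo libraries (exact permutation p = 0.0286, adjusted p = 0.1). No other lymph node value had an adjusted p below 0.213. The ratio of Stat5b to Stat5a there was 2.60 and 2.46 for WT, 2.14, 2.32 and 1.69 for het, and 2.24 and 2.27 for homo libraries. In spleen it was 2.95 in WT, 2.62 in Y665H and 2.47 in Y665F. None of the 14 trends passed after adjustment.

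**Figure D4:**
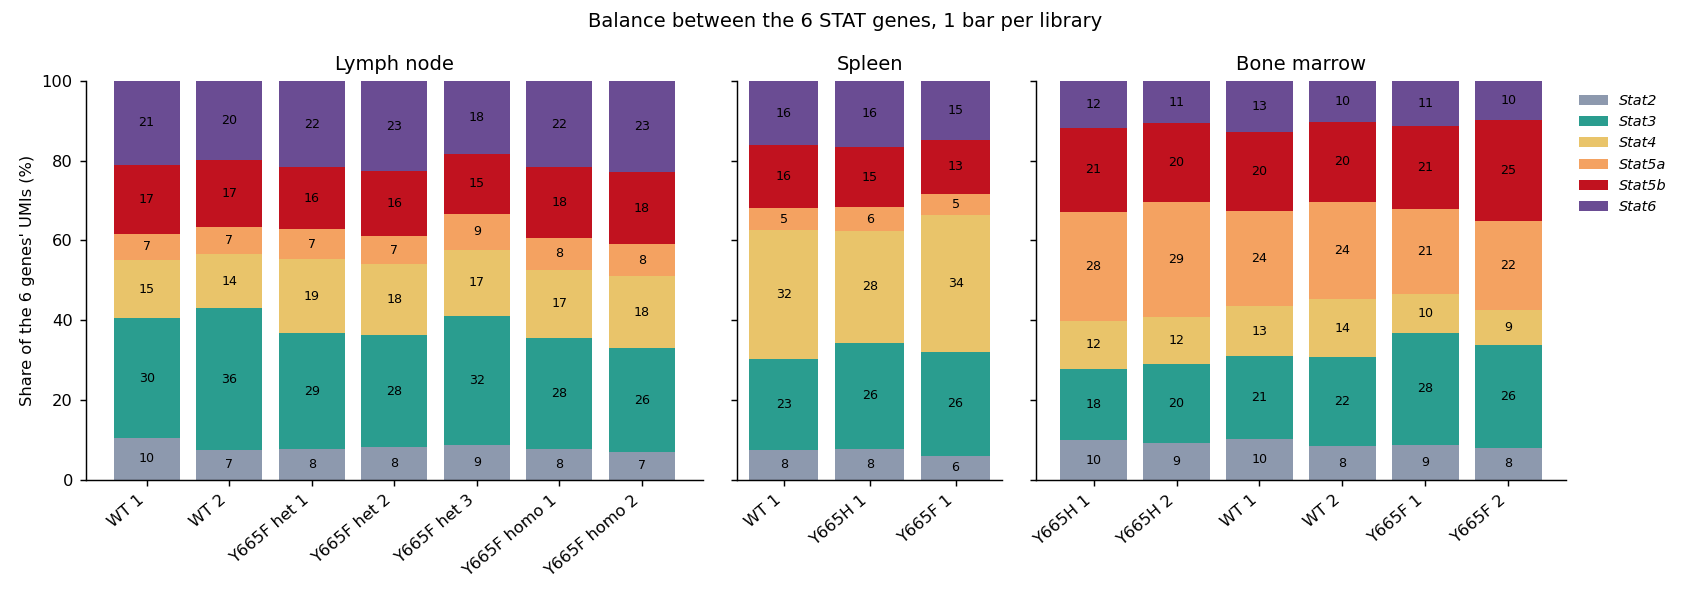
Share (%) of each STAT gene in the summed UMIs of the 6 genes, as 1 stacked bar per library from 0 to 100%, by tissue and genotype. The Stat3 share is larger in the Y665F marrow libraries (mean 26.8%) than in WT (21.5%) and Y665H (18.9%).

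The surrounding pathway was followed with 23 genes for kinases, feedback inhibitors, phosphatases, shared receptor chains and the Stat2 partner Irf9. In whole marrow 8 of the 23 rose and 4 fell in Y665F against WT, with a median log2 difference of 0.43 beside 0.04 over all genes, of which 31.3% were called. Socs2, a feedback inhibitor of growth hormone and cytokine receptors, was at 4.96 and 4.35 CPM in WT, 2.31 and 2.2 CPM with Y665H, and 101 and 87 CPM with Y665F (log2 difference from WT 4.17 ± 0.23, adjusted p = 1.03e-07). Cish, the STAT5 feedback inhibitor, was at 3.6 and 3.4 CPM in WT, 1.85 and 2.43 CPM with Y665H, and 26.7 and 26.9 CPM with Y665F (2.76 ± 0.25, adjusted p = 1.60e-05). Csf2rb, the shared chain of the interleukin-3 and GM-CSF receptors, was at 8.12 and 5.83 CPM in WT and 34.8 and 31.0 CPM with Y665F (2.09 ± 0.24, adjusted p = 0.000115). These differences were larger than those of any STAT gene in whole marrow.

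Of the others, Socs3 (2.05 ± 0.35, adjusted p = 0.000879) and the kinase Jak3 (1.09 ± 0.29, adjusted p = 0.0115) rose, and Il2rb, a chain of the interleukin-2 receptor, fell by 1.89 on the log2 scale (adjusted p = 0.00818). Il2rb is low in marrow, at 1.3 and 0.797 CPM in WT and 0.234 and 0.384 CPM with Y665F. Between Y665H and WT 0 of the 23 passed by edgeR, with 2 at an unadjusted p under 0.05. Between Y665F and Y665H 10 rose and 4 fell, where 45.1% of all genes were called.

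**Figure D5:**
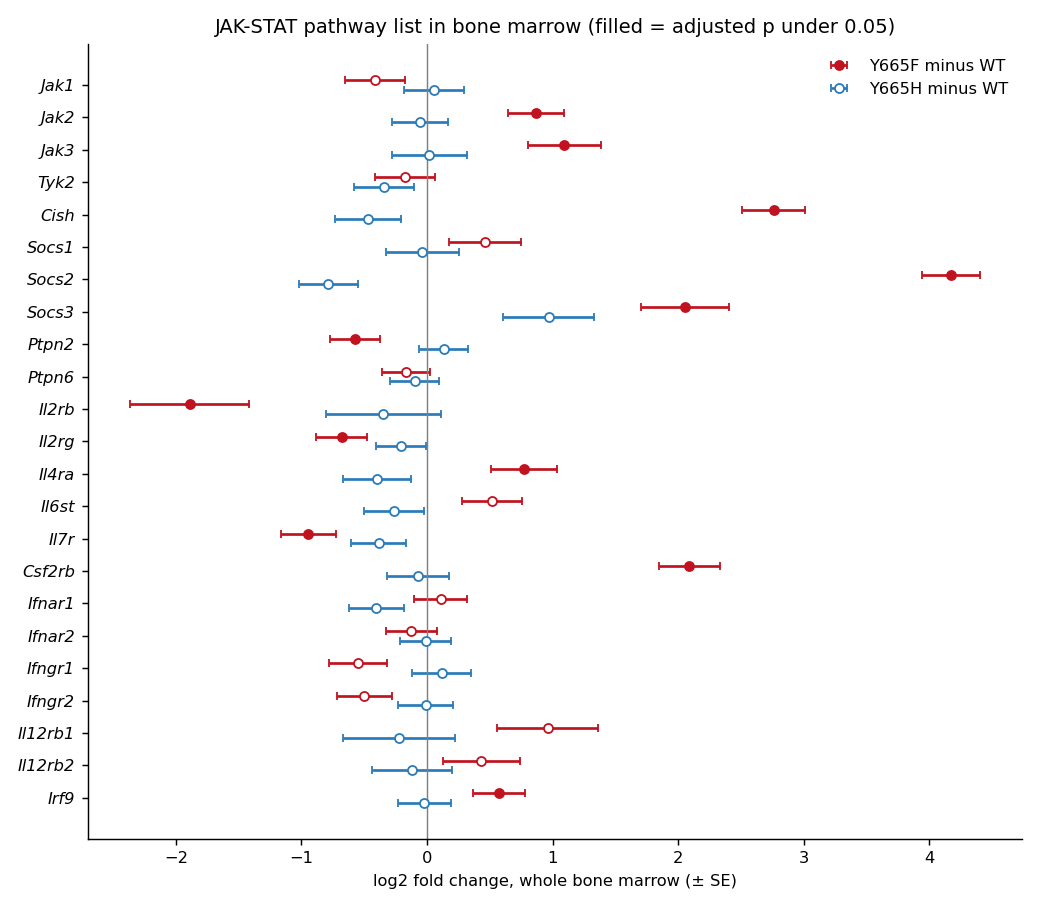
Log2 difference ± SE against WT of the 23 pathway genes in whole marrow, Y665F in red and Y665H in blue, filled where adjusted p was under 0.05. Socs2 (4.17) and Cish (2.76) stand farthest from 0 in Y665F, and no Y665H point is filled.

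In whole lymph node 1 of the 23 passed in het and 2 in homo libraries, where 1.65% and 4.6% of all genes were called. Il2rb was at 77.1 and 88.7 CPM in WT, 177, 130 and 145 CPM in het, and 199 and 164 CPM in homo libraries, and it rose by a log2 difference of 0.95 ± 0.14 in het (adjusted p = 0.0163) and 1.21 ± 0.15 in homo (adjusted p = 0.00358). All mutant libraries lay above WT. Within CD8 cells it passed too, with log2 differences of 0.77 in het and 1.07 in homo libraries (adjusted p = 0.00699 and 0.000439). It was not called within CD8 cells with Ccl5 (-0.11 and -0.14), within those without (0.24 and 0.43) or in CD4 cells (0.06 and -0.17), for het and homo in turn. The share of CD8 cells with Ccl5 was 8.4 and 7.38% in WT and 28.1 to 49.7% in the mutant libraries, and its part in the rise was not tested. Ifngr2, a chain of the interferon-gamma receptor, was at 56.6 and 55.7 CPM in WT, 36.2, 38.5 and 41.3 CPM in het, and 35.1 and 30.9 CPM in homo libraries, and passed in homo libraries (log2 difference -0.69 ± 0.12, adjusted p = 0.0119). Within CD8 cells Ifngr2 passed in het (-0.78, adjusted p = 0.0198) and homo libraries (-1.24, adjusted p = 0.00878). It was not called in CD8 cells without Ccl5 (-0.35 in het and -0.45 in homo libraries), and with Ccl5 it did not pass the filter on low counts. The other class calls were Il6st in CD8 cells of homo libraries (-0.63, adjusted p = 0.0427) and Socs3 in CD4 cells of het libraries (-1.06, adjusted p = 0.000977). In homo libraries Il6st was not called in CD8 cells without Ccl5 (-0.30) or with it (-0.46). In spleen, without a test, Cish was at 15.7, 11.7 and 54.7 CPM, Socs2 at 6.74, 3.96 and 21.7 CPM, and Il2rb at 144, 129 and 272 CPM in WT, Y665H and Y665F.

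STAT dimers bind the palindromic GAS motif, and the promoters of the genes above were searched for TTCNNNGAA, which reads the same on both strands. RefSeq promoters of 300 bases (GRCm38.p6) were matched for 6 of 6 STAT genes and 18 of the 23 pathway genes, and 8.3% of all 32851 promoters hold the motif. No STAT gene's promoter held these letters in this window. Among the matched pathway genes 6 did, which were Cish, Socs3, Il7r, Ifnar1, Ifnar2 and Il12rb2. In Y665F marrow Cish and Socs3 rose, Il7r fell by 0.95 on the log2 scale (adjusted p = 0.00511), and Ifnar1, Ifnar2 and Il12rb2 were not called. The matches of Cish and Socs3 are shown on the next lines as examples, with the motif in capitals (Cish chr9:107296654-107296683, plus strand, 2 matches; Socs3 chr11:117969502-117969530, minus strand, 154 bases before the start).
Cish: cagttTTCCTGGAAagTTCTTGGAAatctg
Socs3: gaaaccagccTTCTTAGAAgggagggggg
A match is a stretch of letters and was not measured as a binding site here. Socs2, Csf2rb and Il2rb were not among the matched promoters.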

How the data were processed

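The authors deposited raw UMI counts per gene and barcode, made with Cell Ranger (5.0.0 for lymph node and 6.0.0 for spleen and marrow per the file headers; 5.0 with Seurat 4.0 and mm10 in the submitters' notes). The labels name a 3′ kit and the study's methods a 5′ kit, so the tagged transcript end is not settled. The 7 T-cell receptor libraries were not used.

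Barcodes were kept from 200 genes upward if mitochondrial UMIs did not exceed 10%. A class needed 2 distinct markers, barcodes meeting several gates were left out, and a class was tested with at least 20 cells in every library. Doublets were not called. The members, gene lists and gates were chosen with earlier results of these data known. Counts were summed per library and class and fitted over all genes with edgeR 4.0.16 (R 4.3.3; TMM, filterByExpr, quasi-likelihood test, Benjamini-Hochberg; called at adjusted p under 0.05). DESeq2 1.42.0 was an alternative. Exact tests used scipy 1.17.1. The fit was tested on simulated data. The labels do not say which libraries came from separate mice, so p-values measure the spread between libraries, which may be partly technical. In marrow the replicates of a genotype differed in sex, so they came from different mice and their spread includes any difference between the sexes. Intervals cover counting error only.

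All 6 members were named. Of the pathway list, genes passing in whole tissue were named by size of change, at most 6 a comparison. The alike genes were the 3 with the highest correlation over marrow classes among genes with at least 20 CPM in a class.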

Additional observations from a re-analysis of the deposited data

Results flagged for a closer look

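Whole-tissue log2 differences of 4 members had opposite signs in Y665F homo lymph node and in Y665F marrow, each against its own WT, and every library of each group lay on its own side, as did 15.2% of 8107 genes with a mean of at least 5 CPM in both tissues. Stat2 was at -0.42 in lymph node and 0.46 in marrow, Stat3 at -0.44 and 0.93, Stat5b at -0.06 and 0.82, and Stat6 at -0.03 and 0.48. The lymph node values of Stat5b and Stat6 changed sign on leaving out 1 library, running from -0.1493 to 0.0260 and from -0.1012 to 0.0467. The difference between the tissues was not tested. The labels give zygosity for lymph node only, and the cell mix differs between the tissues.

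Stat4 had log2 differences of opposite sign among marrow classes between Y665F and WT. Its log2 difference was -0.54 in the stem class, -0.41 in the lymphoid-primed class and -0.78 in the B lineage, but 1.25 in early erythroid cells, where its level was lowest (2.05 and 2.62 CPM in WT, 3.04 and 11.3 CPM in Y665F). None of these values passed adjustment without a replicate block, with which the early erythroid value was called (adjusted p = 0.00915), and the difference between classes was not tested.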

How the results depend on the processing

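Among single members, 488 of 577 values under alternatives kept their direction and side of the threshold, 66 no longer passed, 5 passed instead and 18 changed sign, while 129 of 133 balance values and 59 of 74 counts of calls held. The 577 include whole-tissue values that were not called to begin with and so could not lose a call. The share that no longer passed was therefore larger among called values. DESeq2 made 4 calls between Y665F and WT and 7 between Y665F and Y665H, and asking for an absolute log2 difference over 1 left 3 and 9. Gates of 3 markers left 3 calls between Y665F and WT in the classes, a count that leaves out whole marrow. Homo lymph node had 1 call with library totals and 2 with no filter on low counts. Leaving out each replicate in turn gave 1 to 8 calls for Y665F minus WT, 0 to 1 for Y665H minus WT, 5 to 17 for Y665F minus Y665H, 0 to 2 for homo lymph node and 0 for het. With a replicate block there were 8 calls for Y665F minus WT, 20 for Y665F minus Y665H and 0 for each of the others; same-numbered libraries correlated from -0.123 to 0.361 in marrow and from -0.208 to 0.067 in lymph node, so same-numbered libraries did not all deviate together; in marrow the number goes with sex, and the block kept every call made without it. Sign changes were of log2 differences near 0. Lymph node Stat5a in het turned to -0.0786 with library totals, -0.0021 with no filter, -0.0655 with the replicate block, -0.0716 without het 3 and homo 1, -0.0086 with all barcodes and -0.1038 with barcodes of at least 500 genes, and ran from -0.1081 to 0.145 leaving out a replicate. In homo libraries Stat5a turned to -0.0028 with library totals and ran from -0.0239 to 0.2307, Stat6 turned to 0.0047 without het 3 and homo 1 and ran from -0.1012 to 0.0467, and Stat5b ran from -0.1493 to 0.0260 leaving out a replicate. In marrow, Stat5a between Y665H and WT turned to -0.2217 with library totals and ran from -0.0542 to 0.1589, Stat2 ran from -0.3476 to 0.0372, and Stat4 between Y665F and WT from -0.0357 to 0.1698. With 500 genes the lymph node difference in share turned to 0.2212 percentage points for Stat2 and -0.4197 for Stat6, and leaving out replicates gave -1.931 to 0.0654 for the marrow share of Stat2 and -2.2401 to 0.1691 for that of Stat6. The causes were not tested. CD4 and B cells at 500 genes and CD4 cells with gates of 3 markers were not run in lymph node, since fewer than 20 cells remained in a library. With 2 or 3 libraries a group and 1043 to 10550 STAT UMIs a library in lymph node and marrow, small differences were not detectable.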
